A study of Mus musculus with 2 samples.

Results

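The genes described here are 38 genes of DNA replication and mitosis, read in the adrenal gland of male mice aged 25 days. They were taken by gene name from the deposited transcript tables: 19 genes of DNA replication, 16 genes of mitosis and the 3 D-type cyclins. All 38 had reads in both libraries, out of 18168 annotated genes detected. The study is 2 long-read RNA sequencing libraries of total RNA from adrenal gland tissue. The mice were of strain B6CASTF1/J, a cross of C57BL/6 with CAST/EiJ, and the libraries are labelled biological replicate 1 and biological replicate 2 of 1 group. No treatment, mutation or other condition is labelled, so the libraries are compared with each other, and a test between them compares 2 libraries and not conditions. By the labels of the libraries they share an animal and by those of the tissues they do not. Whether the spread between the libraries includes that between animals is therefore not known.

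Cells copy their DNA in S phase and divide it in mitosis, and most of the genes described here are transcribed mainly in cells that are in these phases. Before S phase the origin recognition complex, Cdc6 and Cdt1 load the ring-shaped helicase Mcm2 to Mcm7 onto DNA, Cdc45 and the GINS complex switch it on, and polymerases held by the Pcna clamp make the new strands from nucleotides that ribonucleotide reductase and thymidylate synthase supply. In mitosis the kinase Cdk1, bound to a cyclin, starts chromosome condensation and spindle assembly, the Bub proteins hold back separation until every chromosome is attached, and Cdc20 releases it. The D-type cyclins act before both, in G1 phase, where with Cdk4 or Cdk6 they phosphorylate the retinoblastoma protein and free the E2F factors that transcribe the replication genes. In the young mouse adrenal, cells of the outer cortex are known to divide and renew the gland.

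Levels are given as reads per 1000000 reads in annotated mouse genes (CPM), whose number was 752432 for replicate 1 and 1210671 for replicate 2. Each long read was counted as 1 cDNA molecule, so levels were not divided by transcript length. Whether some reads are PCR copies of a molecule, or some lengths were read more often, was not tested. The limit that a count of 0 allows, 3 reads, is 3.99 CPM in replicate 1 and 2.48 CPM in replicate 2. Both libraries held the adrenal markers: the 7 listed cortex genes summed to 61457 and 25032 CPM in replicates 1 and 2, and the 6 medulla genes to 9468 and 7129 CPM. Markers of liver and skeletal muscle were unequal. The 6 liver genes summed to 5.32 CPM (4 of them at 0 reads) in replicate 1 and 43821 CPM in replicate 2. The 6 skeletal muscle genes summed to 2392 CPM in replicate 1 and 0.826 CPM (5 of them at 0 reads) in replicate 2. Erythroid genes summed to 2475 and 2609 CPM in replicates 1 and 2, and leukocyte genes to 323 and 330.4 CPM. Endothelial genes summed to 635 and 564 CPM in replicates 1 and 2, and stroma and capsule genes to 1414 and 1091 CPM. Brown and white fat genes summed to 3692 and 2580 CPM in replicates 1 and 2. The part of cells of these other tissues in the member reads was not tested. The median log2 ratio of replicate 1 over replicate 2 over all 11382 tested genes was 0.34, and a ratio of a member is to be read against it. In whole tissue, fewer cells in a phase and less RNA in each such cell cannot be told apart.

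All 38 genes together held 1209 reads in replicate 1 and 1330 in replicate 2, which is 0.161% and 0.110% of gene reads. The replication genes summed to 762 CPM (95% exact interval 700.5 to 826) in replicate 1 and 553 CPM (512 to 596) in replicate 2. The mitosis genes summed to 238 CPM (204 to 275) in replicate 1 and 166 CPM (144 to 191) in replicate 2. The 3 D-type cyclins alone reached 607 and 380.0 CPM in replicates 1 and 2, above the 16 mitosis genes together in each library. The median level, as mean CPM of the libraries, was 20.3 among the replication genes and 10.2 among the mitosis genes, against 11.3 over all detected genes. Intervals, errors of ratios and limits here reflect the counting of reads and nothing else.

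Replication reads outnumbered mitosis reads by about the same factor in each library. The ratio of replication to mitosis reads was 3.20 (2.70 to 3.81) in replicate 1 and 3.33 (2.84 to 3.92) in replicate 2, and the intervals overlap. Without the most abundant gene of each set, Mcm2 and Cdc20, the ratio was 2.98 (2.48 to 3.60) in replicate 1 and 3.35 (2.81 to 4.00) in replicate 2. The ratio is taken within a library, so scaling between libraries does not enter it, but it depends on which genes are listed. For 47 other replication genes over 54 other mitosis genes it was 1.44 (1.31 to 1.60) in replicate 1 and 1.35 (1.23 to 1.48) in replicate 2, above 1 in each library and below the intervals of the member genes.

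**Figure D1:**
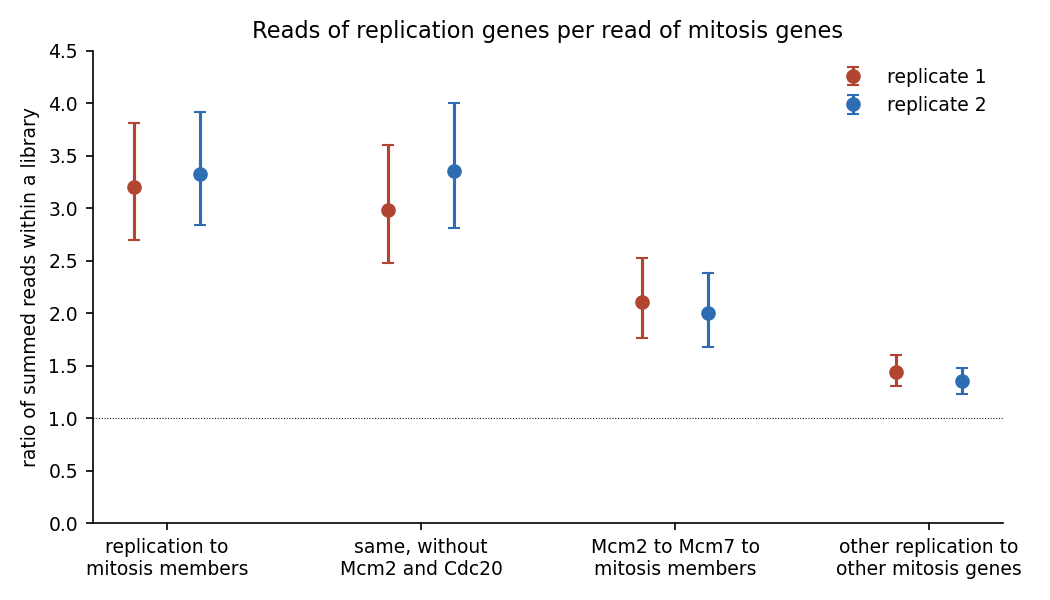
Reads of replication genes per read of mitosis genes within each library (y axis, ratio of summed reads; points, ratio; bars, 95% exact binomial intervals of counting error; dotted line, equal reads). For the member genes the ratio was 3.20 in replicate 1 and 3.33 in replicate 2, and for the other genes of the same processes 1.44 and 1.35.

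Mcm2, Mcm6 and Mcm7, subunits of the replicative helicase, were the most abundant replication genes, and the 6 subunits of this ring were not at equal levels. Mcm2 (chromosome 6, 88883474 to 88898780, mm10, minus strand) had 114 reads (152 CPM) in replicate 1 and 107 reads (88.4 CPM) in replicate 2. Mcm6 (chromosome 1, 128331590 to 128359664) had 122 CPM in replicate 1 and 91.7 CPM in replicate 2. Mcm7 (chromosome 5, 138164583 to 138172422) had 85.1 CPM in replicate 1 and 56.2 CPM in replicate 2. These 3 subunits led the replication genes in both libraries. Mcm3 had 54.5 and 46.3 CPM in replicates 1 and 2, with 41 and 56 reads. Mcm5 had 61.1 and 35.5 CPM in replicates 1 and 2, with 46 and 43 reads. Mcm4 was the lowest, with 20 reads (26.6 CPM) in replicate 1 and 17 reads (14.0 CPM) in replicate 2. Although the helicase holds each subunit in equal number, Mcm2 had 5.70 reads (3.52 to 9.68) per read of Mcm4 in replicate 1 and 6.29 (3.75 to 11.2) in replicate 2. The 6 subunits summed to 501 and 332 CPM in replicates 1 and 2, which is 377 of 573 and 402 of 669 replication reads.

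The member factors that load or start the helicase were below its most abundant subunits. Cdc45 and Mcm4, the lowest subunit, were not separated in either library by the exact interval of the share of reads. Cdt1, which brings the helicase to the origin, had 19.9 CPM (15 reads) in replicate 1 and 13.2 CPM (16 reads) in replicate 2. Cdc45, which activates the helicase, had 25.3 CPM (19 reads) in replicate 1 and 8.26 CPM (10 reads) in replicate 2, intervals of 15.2 to 39.4 and 3.96 to 15.2 CPM that meet at their edges. Gins2, a subunit of the GINS complex, had 3.99 and 6.61 CPM in replicates 1 and 2. Their partners Cdc6 (2 and 4 reads) and Orc1 (1 read in each library) lay near the limit of detection. Of the origin recognition subunits outside the members, Orc6 was lowest by mean level (10.6 and 16.5 CPM in replicates 1 and 2). Orc3 was highest (79.7 and 43.0 CPM), above Mcm5 and Mcm4 in both libraries. At the fork, the clamp Pcna had 34.6 CPM (26 reads) in replicate 1 and 46.3 CPM (56 reads) in replicate 2, and its intervals overlap. Rfc4, a subunit of the loader that places this clamp, had 21.3 and 11.6 CPM in replicates 1 and 2. The primase subunit Prim1 had 2.66 and 6.61 CPM in replicates 1 and 2, on 2 and 8 reads. Pola1, the catalytic subunit of the polymerase that primase works with, had 2 reads in replicate 1 and 1 in replicate 2.

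Among the enzymes that supply nucleotides, the subunits of ribonucleotide reductase led. Rrm2, the small subunit that is made in S phase, had 54.5 CPM (41 reads) in replicate 1 and 52.0 CPM (63 reads) in replicate 2. Rrm1, the large subunit, had 59.8 CPM (45 reads) in replicate 1 and 33.9 CPM (41 reads) in replicate 2. The ratio of Rrm2 to Rrm1 reads was 0.911 (0.582 to 1.42) in replicate 1 and 1.54 (1.02 to 2.34) in replicate 2, and the intervals overlap. Thymidylate synthase, Tyms, had 17.3 and 10.7 CPM in replicates 1 and 2, on 13 reads each. Dut, which breaks down dUTP and so keeps uracil out of DNA, had 14.6 CPM (11 reads) in replicate 1 and 26.4 CPM (32 reads) in replicate 2. Of the 18 pairs of neighbours in the order of mean levels of the replication genes, 2 were separated in both libraries by the exact interval of the share of reads, so most of the order within the list is not resolved at this depth.

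The mitosis genes were lower, and no 2 neighbours in their order of levels were separated in both libraries. Cdc20, the activator of the anaphase-promoting complex, led with 33.2 CPM (25 reads) in replicate 1 and 27.3 CPM (33 reads) in replicate 2. The B-type cyclins came next. Ccnb1 had 26.6 and 19.0 CPM in replicates 1 and 2, on 20 and 23 reads. Ccnb2 had 25.3 and 16.5 CPM in replicates 1 and 2, on 19 and 20 reads. Their kinase Cdk1 had 15.9 and 9.91 CPM in replicates 1 and 2, on 12 reads each. These values overlap between the libraries, as do those of Ccna2, the A-type cyclin of S phase and early mitosis, which had 21.3 CPM (16 reads) in replicate 1 and 9.09 CPM (11 reads) in replicate 2.

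Of the mitotic kinases, Aurkb, which corrects faulty attachment of chromosomes, had 22.6 and 15.7 CPM in replicates 1 and 2. Aurka, which acts at spindle poles, had 13.3 and 16.5 CPM in replicates 1 and 2, on 10 and 20 reads. Plk1 had 14.6 and 4.96 CPM in replicates 1 and 2, on 11 and 6 reads. The spindle proteins were of similar abundance. Tpx2, which activates Aurka on microtubules, had 17.3 CPM (13 reads) in replicate 1 and 4.13 CPM (5 reads) in replicate 2. The motor Kif11, which pushes spindle poles apart, had 12.0 and 5.78 CPM in replicates 1 and 2, on 9 and 7 reads. Of the Bub checkpoint proteins among the members, Bub1b had 8 and 6 reads (10.6 and 4.96 CPM) and Bub1 had 2 and 4 reads in replicates 1 and 2. On chromosomes, Top2a, which untangles DNA, had 10.6 and 5.78 CPM in replicates 1 and 2, on 8 and 7 reads. Birc5, a partner of Aurkb, had 6.65 and 8.26 CPM in replicates 1 and 2, on 5 and 10 reads. Cenpa, the histone that marks centromeres, had 3.99 CPM (3 reads) in replicate 1 and 13.2 CPM (16 reads) in replicate 2. Mki67, whose protein is a common stain for dividing cells, had 1 read in replicate 1 and 2 reads in replicate 2, the lowest of the mitosis genes. Its longest annotated coding transcript is 10061 bases, the longest among the 38 genes. Models over 5000 bases held 1.68% of the mitosis reads in replicate 1 and 0.498% in replicate 2, against 4.78% and 3.05% of the reads of all genes. That share depends on the list, since besides Mki67 only Top2a (5221 bases) among the mitosis genes has an annotated coding transcript of such length. In the D-type cyclins such models held 6.13% and 24.1% of reads in replicates 1 and 2. Whether length lowered the Mki67 count was not tested.

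**Figure D2:**
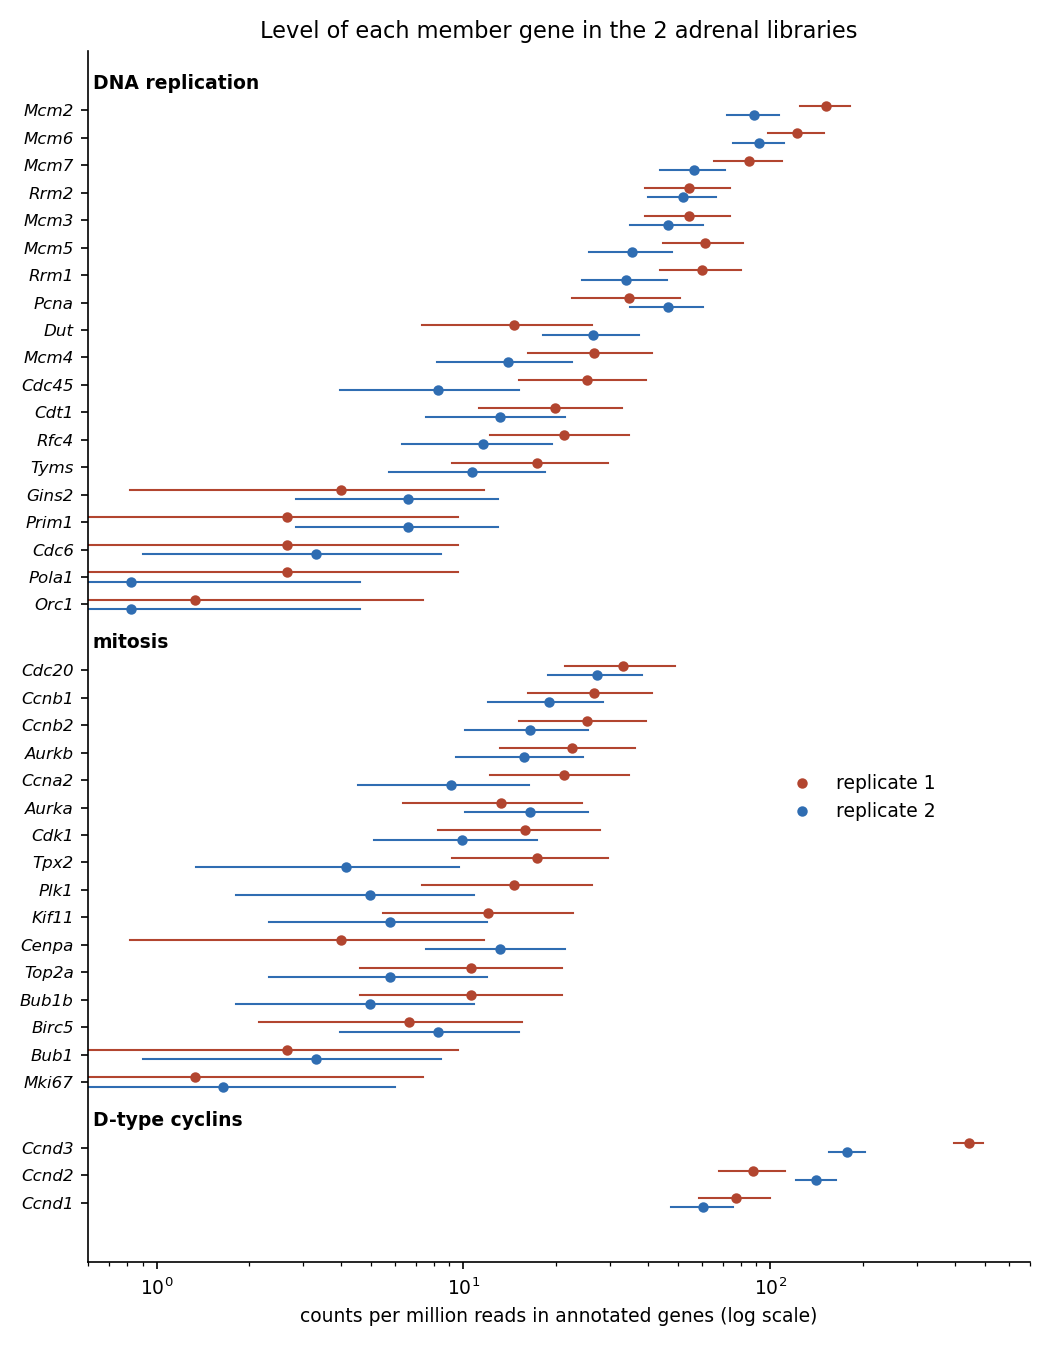
Level of each of the 38 genes in replicate 1 (upper point of each pair) and replicate 2 (lower point), as CPM on a log axis, with 95% exact intervals of counting error cut at the left edge of the axis. Replication genes reach 152 CPM (Mcm2 in replicate 1), mitosis genes 33.2 CPM (Cdc20 in replicate 1) and Ccnd3 443 CPM in replicate 1.

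The D-type cyclins differed from each other and between the libraries. Ccnd3 (chromosome 17, 47505051 to 47599691, plus strand) had 333 reads (443 CPM) in replicate 1 and 216 reads (178 CPM) in replicate 2, and ranked 486 among all detected genes by mean level. Ccnd2 (chromosome 6, 127125162 to 127152193) had 66 reads (87.7 CPM) in replicate 1 and 171 reads (141 CPM) in replicate 2. Ccnd1 (chromosome 7, 144929931 to 144939925) had 58 reads (77.1 CPM) in replicate 1 and 73 reads (60.3 CPM) in replicate 2. Ccnd3 was the highest of the 3 in both libraries, and the order of Ccnd2 and Ccnd1 was resolved in replicate 2. Ccnd3 had 5.05 reads (3.86 to 6.67) per read of Ccnd2 in replicate 1 and 1.26 (1.03 to 1.55) in replicate 2. These intervals do not overlap, and the ratio within a library does not depend on scaling.

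Between the libraries, 33 of the 38 genes had at least 10 reads in all and were tested by Fisher's exact test (two-sided, Benjamini-Hochberg adjusted over all 11382 tested genes, threshold 0.05). Of these 33 genes, 6 were higher in replicate 1, against 25.3% of all tested genes, and 1 was lower, against 11.5%. Over all tested genes 36.8% were called in either direction. The share called changed with the read minimum. Over all genes 29.7% were called higher with at least 20 reads over both libraries and 14.8% with at least 1 read. The number of calls is therefore not read as a trait of the members. The test left 26 members uncalled, and Cdc6, Orc1, Pola1, Mki67 and Bub1 had too few reads to be tested. The called replication genes were Mcm2, Mcm5, Rrm1 and Cdc45. Mcm2 had a log2 ratio of replicate 1 over replicate 2 of 0.78 ± 0.19 (SE; Fisher's exact adjusted p = 3.88e-04), Mcm5 0.78 ± 0.30, Rrm1 0.82 ± 0.31 and Cdc45 1.58 ± 0.55 (Fisher's exact adjusted p = 0.0344, 0.0306 and 0.0126). Tpx2 was the called mitosis gene, at 1.98 ± 0.73 (Fisher's exact adjusted p = 0.0187). The largest difference in reads was that of Ccnd3, higher in replicate 1 at 1.31 ± 0.13 (Fisher's exact adjusted p = 1.46e-24), while Ccnd2 was lower in replicate 1 at -0.68 ± 0.21 (Fisher's exact adjusted p = 0.00333).

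The median log2 ratio was 0.60 among the tested replication genes and 0.65 among the tested mitosis genes, against 0.34 over all tested genes. With edgeR's TMM factors the medians were 0.25 for the replication genes, 0.30 for the mitosis genes and -0.01 for all genes. Ccnd3 was then the only member called higher (0.96), and Dut (-1.16) and Ccnd2 (-1.03) were those called lower. Over all tested genes 13.7% were called higher and 17.7% lower. With DESeq2 size factors Ccnd3 was again the only member called higher, and Pcna, Dut, Cenpa and Ccnd2 were called lower, against 12.2% and 19.3% of all tested genes. At an assumed coefficient of variation of 0.2 between samples, Ccnd3 alone was called, as higher (edgeR exact test), against 6.53% of all tested genes called higher and 6.85% lower. The liver and muscle marker sums given above differ between the libraries in the same comparison, and their part in these ratios was not tested. When the 618 genes over 10-fold different were left out of the totals, the replication genes summed to 769.7 and 715 CPM and the mitosis genes to 240.5 and 215 CPM in replicates 1 and 2. These genes were picked by their ratio between the same 2 libraries, so the nearer sums test no cause.

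**Figure D3:**
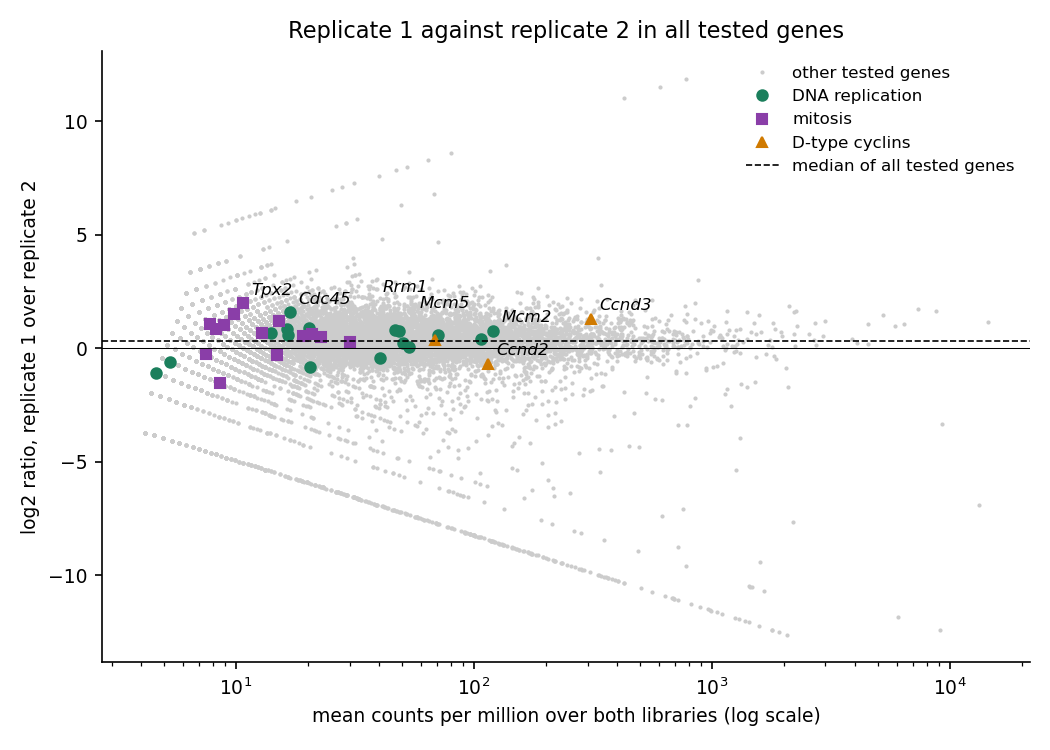
Log2 ratio of replicate 1 over replicate 2 (y axis) against mean CPM (x axis, log scale) for all 11382 tested genes, with the 33 tested members in colour and the 7 called members named. Ccnd3 lies at 1.31 and Ccnd2 at -0.68, on opposite sides of the median of all tested genes (dashed, 0.34), and the named replication and mitosis genes lie between 0.78 and 1.98.

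In 3 further lists of genes from the same pathways 93 genes were tested, 22 were called higher in replicate 1 and 3 lower, against 25.3% and 11.5% of all tested genes. With TMM factors 12 were called higher and 4 lower, against 13.7% and 17.7% of all tested genes. With DESeq2 size factors 10 were called higher and 4 lower, against 12.2% and 19.3%, so the number of calls depends on the scaling. Of 47 other replication genes 39 were tested, 8 were called higher in replicate 1 and 2 lower. The highest of them by mean level were the single-strand binding protein Rpa1 (98.3 and 73.5 CPM in replicates 1 and 2, not called), Rnaseh2a (85.1 and 40.5 CPM, called higher), Orc3 (79.7 and 43.0 CPM, called higher) and Rfc2 (65.1 and 57.0 CPM, not called). The others called higher were Rfc1, Pold3, Rpa2, Orc5, Rrm2b and Uhrf1, and those called lower were Mcm10, which acts when the loaded helicase is switched on (3 reads in replicate 1 and 31 in replicate 2) and thymidine kinase Tk1 (4 and 23 reads). Of 54 other mitosis genes 36 were tested, 7 were called higher in replicate 1 and 1 lower. Bub3, a checkpoint protein (132 and 121 CPM in replicates 1 and 2), was not called. Fzr1 (136 and 64.4 CPM), Smc4 (54.5 and 21.5 CPM), Kif20a, Racgap1, Cdc25a, Prc1 and Wee1 were called higher, and Ube2s, a ubiquitin enzyme of the anaphase-promoting complex, was lower (38.5 and 71.0 CPM).

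Of 26 genes that control G1 phase, 18 were tested, 7 were called higher in replicate 1 and none lower by the Fisher's exact test, against 25.3% and 11.5% of all tested genes. Cdkn1c, an imprinted inhibitor of cyclin-dependent kinases, was the highest of them, with 911 reads (1211 CPM) in replicate 1 and 917 reads (757 CPM) in replicate 2. Cdk4, the kinase partner of the D-type cyclins, had 174 and 106 CPM, and Myc 134 and 37.2 CPM in replicates 1 and 2, all called higher. E2f4, Tfdp2, Ccne1 and Rbl2 were also called higher, and Tfdp1 (139.5 and 107 CPM in replicates 1 and 2), a partner of E2F factors, was not.

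The role sets differed in some letters of their reference promoters, a description of sequence that does not use the reads. The choice of members did not use these letters, but the motifs were chosen with earlier results of these data known. RefSeq promoter windows of GRCm38.p6, from 250 bases before to 50 after each start, were found for 31 of the 38 genes. Windows were searched on both strands for letters that E2F factors are known to bind (TTCCCGC or TTGGCGC or TTCGCGC or TTGCCGC) for the cell cycle homology region, CHR, through which the DREAM complex acts on late cell cycle genes (TTTGAA or TTCGAA), and for the CCAAT box (CCAAT), which the factor NF-Y binds. The E2F-like and CHR motifs do not overlap each other in their letters, though an E2F-like match on one strand can overlap another on the opposite strand. E2F-like letters stood in windows of 12 of 17 replication genes (70.6%) and 3 of 13 mitosis genes (23.1%), against 10.9% of the 27025 genes with a window. The CHR letters stood in windows of 3 of 17 replication genes (17.6%) and 11 of 13 mitosis genes (84.6%), against 21.7% of all genes. The CCAAT letters were frequent in both sets, at 12 of 17 replication genes (70.6%) and 12 of 13 mitosis genes (92.3%), against 41.1% of all genes. The further lists showed the same order for E2F-like and CHR letters, with E2F-like letters at 22 of 37 other replication genes and 11 of 45 other mitosis genes, and CHR letters at 8 and 30; CCAAT stood at 51.4% and 62.2% of them. A match is a description of the letters and not a bound site, and the base composition of the windows was not matched.

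The bases before the start of 5 of these genes are shown because they hold the letters that set the 2 role sets apart, with the matches in capitals. They are read from RefSeq windows of GRCm38.p6, each 200 bases that end just before the start, on the strand of the gene. Mcm5 (chr8:75109309-75109508, plus strand) and Mcm6 (chr1:128359706-128359905, minus strand) hold E2F-like letters, in part as matches that overlap on opposite strands. Cdc20 (chr4:118437344-118437543, minus strand) and Ccnb2 (chr9:70421555-70421754, minus strand) hold a CHR match, 18 and 167 bases before the start. The Ccnb2 window holds another CHR match outside the bases shown, at base 5 counted from the start. Cdk1 (chr10:69352913-69353112, minus strand), which acts in both phases, holds E2F-like letters 178 and 130 bases and CHR letters 71 and 15 bases before the start, and with Mki67 and Mcm7 is among the 3 members that hold both kinds.
Mcm5: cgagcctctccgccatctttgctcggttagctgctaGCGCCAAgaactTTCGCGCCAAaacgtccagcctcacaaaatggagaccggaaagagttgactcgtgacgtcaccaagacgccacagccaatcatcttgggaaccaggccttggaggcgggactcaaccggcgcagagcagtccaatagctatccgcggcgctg
Mcm6: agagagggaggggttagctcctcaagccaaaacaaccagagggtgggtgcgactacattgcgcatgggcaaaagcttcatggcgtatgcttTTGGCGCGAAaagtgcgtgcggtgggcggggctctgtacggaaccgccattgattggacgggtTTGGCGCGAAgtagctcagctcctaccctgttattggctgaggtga
Cdc20: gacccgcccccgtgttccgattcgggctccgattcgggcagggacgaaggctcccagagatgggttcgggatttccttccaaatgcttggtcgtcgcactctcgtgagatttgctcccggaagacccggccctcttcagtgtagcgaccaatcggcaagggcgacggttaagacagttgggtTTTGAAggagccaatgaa
Ccnb2: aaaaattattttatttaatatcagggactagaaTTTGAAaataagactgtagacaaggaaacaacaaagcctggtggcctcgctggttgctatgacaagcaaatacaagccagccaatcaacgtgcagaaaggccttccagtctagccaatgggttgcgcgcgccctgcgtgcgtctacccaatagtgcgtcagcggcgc
Cdk1: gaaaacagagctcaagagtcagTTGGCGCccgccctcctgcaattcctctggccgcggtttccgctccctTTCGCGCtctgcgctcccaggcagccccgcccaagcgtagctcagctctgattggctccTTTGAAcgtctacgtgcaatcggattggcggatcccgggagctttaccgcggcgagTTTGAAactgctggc

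**Figure D4:**
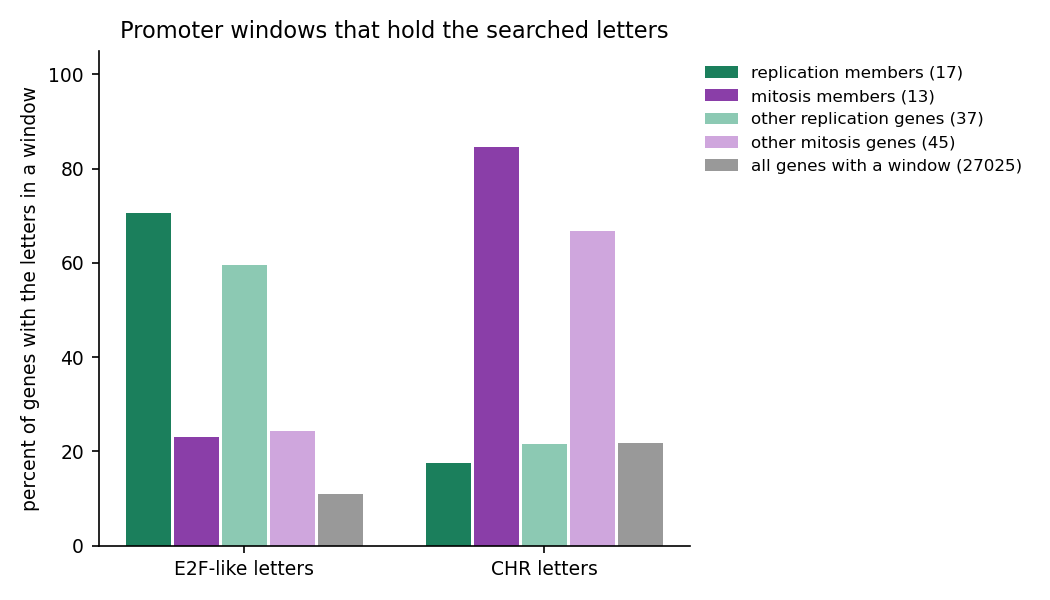
Percent of genes (y axis) with E2F-like or CHR letters in a RefSeq promoter window, for replication members, mitosis members, the other genes of each process and all genes, with the number of genes that have a window in brackets. E2F-like letters are at 70.6% of replication members and 23.1% of mitosis members, and CHR letters at 17.6% and 84.6%.

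Most member reads fitted annotated transcripts. The authors class a transcript model as known when its introns are those of an annotated transcript, as an incomplete splice match (ISM) when it holds a consecutive part of them, as NIC when it joins known splice sites in a new way, as NNC when it has a new splice site, and as genomic when it may stem from unspliced RNA or genomic DNA. Known models held 82.1% (79.9 to 84.3) of member reads in replicate 1 and 76.8% (74.5 to 79.1) in replicate 2, against 77.0% and 75.6% over all genes. The members had 162 models in replicate 1, 99 of them from 1 read, and 183 models in replicate 2, 112 of them from 1 read. Of 235 distinct intron chains, 71 were found in both libraries, and these held 92.0% of the spliced member reads, against 83.3% over all genes.

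Of the 24 genes with at least 20 reads over both libraries, 22 had a known leading chain, and for 21 of these it held 50% or more of the gene's reads. Rrm2-201 held 39 of 41 reads in replicate 1 and 60 of 63 in replicate 2, Mcm6-201 80 of 92 and 103 of 111, Mcm2-201 94 of 114 and 80 of 107, and Cdc20-201 24 of 25 and 29 of 33. The leading transcripts of Mcm3, Mcm4, Rrm1, Cdt1, Rfc4, Ccna2, Ccnb1, Cdk1, Aurka and Aurkb each held from 76.7% to 93.3% of the gene's reads over both libraries. For Mcm7, Pcna, Tyms, Ccnb2 and the 3 D-type cyclins the share lay between 51.1% and 88.0%. Mcm5 was the known exception, since its reads fell into 3 annotated forms that differ at the first exon. The first intron of Mcm5-201 was read 15 times in replicate 1 and 17 in replicate 2, that of Mcm5-203 17 and 12 times, and 14 and 13 reads began at a later exon as in Mcm5-205. Mcm5-201 and Mcm5-203 share the introns after that exon, so reads of them cut short at the start would be counted with Mcm5-205.

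Cdc45 had no read of a known model in either library. The same held for Orc1 and Mki67, on 2 and 3 reads over both libraries. Cdc45 lies on the minus strand of chromosome 16, 18780447 to 18811987, and none of its 29 reads used its annotated first intron (1 read of replicate 2 joined the annotated donor to an acceptor 3 bases away). Instead 7 reads in replicate 1 and 3 in replicate 2 began in an exon whose last base, 18812214, lies 227 bases before the annotated gene start. Their first introns ran over 18811713 to 18812213 (5 reads in replicate 1 and 2 in replicate 2) or 18811710 to 18812213 (2 and 1 reads), the acceptor of the second being the annotated one. The annotated coding sequence begins downstream of both, so the difference lies in the untranslated part of the transcript. The leading chain, an ISM of 19 exons with 8 and 5 reads in replicates 1 and 2, lacks the first intron altogether. The 250 bases before the RefSeq start (chr16:18811973-18812222, minus strand) are shown because the new exon ends in them; its last 9 bases are in capitals and are followed by GT, the usual first bases of an intron.
Cdc45: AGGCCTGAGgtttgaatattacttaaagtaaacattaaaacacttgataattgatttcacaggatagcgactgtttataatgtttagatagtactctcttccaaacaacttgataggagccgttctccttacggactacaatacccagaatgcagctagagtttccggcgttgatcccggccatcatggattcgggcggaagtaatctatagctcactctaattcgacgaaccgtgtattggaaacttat

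Among the genes with at least 20 reads over both libraries, Dut was the other one whose leading chain was not annotated. On chromosome 2, plus strand, 6 reads in replicate 1 and 13 in replicate 2 joined the first exon of Dut-202 to position 125247750, and 3 and 11 reads joined it to the annotated position 125247764. The unannotated junction adds 14 bases (in capitals), which is not a multiple of 3. In GENCODE M21 sequence, the frame from the start codon of Dut-202 runs over 200 codons in Dut-202 and 106 in the chain with the added bases. The 2 reference bases before the new junction are AT, while those before the annotated one are AG, the usual end of an intron. Reads of the CAST/EiJ allele were placed on the same mm10 reference, and the part of allele differences or alignment in this junction was not tested.
Dut, chain with the added bases: gcgcgctgGCCCTGCTCGGAAGatgccgcg
Dut-202: gcgcgctgatgccgcg

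Of the unannotated chains, 15 of class NIC or NNC were found in both libraries, in 11 genes. Mcm7 had the most after Dut, with 6 reads in replicate 1 and 8 in replicate 2 that joined the first exon of Mcm7-204 to the body of Mcm7-201, whose own first exon had 48 and 49 reads. Another 2 Mcm7 chains, with 1 and 2 reads and with 1 read in each library, used other first exons. In Mcm2, 2 reads in replicate 1 and 1 in replicate 2 left out exon 7 of 16 (88889788 to 88889922), which has 135 bases, or 45 codons. The joined sequence is shown beside the annotated one, with the bases of the downstream exon in capitals, read on the minus strand from GENCODE M21.
Mcm2 without the exon: atcaacatggaggagGAGCTGACCGGCATT
Mcm2-201: atcaacatggaggagACCATCTATCAGAAC

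The other recurrent chains differed from the closest annotated transcript at a splice site or in the first exon. Bub1 (2 reads in each library) lost 3 bases against Bub1-201, Mcm6 (2 and 1 reads in replicates 1 and 2) and Mcm2 (1 read in each library) lost 2, and Ccnb1 (1 read in each library) gained 15. Tyms (1 read in each library) gained 10 bases and Ccnd1 (1 and 3 reads in replicates 1 and 2) gained 66. Aurka (1 read in each library) used a donor 154 bases farther upstream, before its coding sequence. Ccnd3 (1 and 3 reads in replicates 1 and 2) used the first exon of Ccnd3-217. None of these chains had more than 3 reads in a library. The intron bases at most of the unannotated sites were not read, and the part of allele differences or alignment in these shifts was not tested.

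Most Ccnd3 reads began downstream of the far upstream exon. The first intron of Ccnd3-205, 47593853 to 47594733, was the first intron in 312 reads of replicate 1 and 175 reads of replicate 2. The far upstream first exon, whose intron begins at 47505267, was used by 2 and 4 reads in replicates 1 and 2. Some annotated transcripts, such as Ccnd3-201, hold both introns, so a read of them cut short at its start would be counted with Ccnd3-205. Over all genes 7.61% of reads in replicate 1 and 10.1% in replicate 2 held no intron, and Ccnd1 and Ccnd2 lay above these shares in both libraries. Such reads made up 18 of 58 Ccnd1 reads (31.0%) in replicate 1 and 33 of 73 (45.2%) in replicate 2, and 16 and 33 of them lay inside the last exon. For Ccnd2 they were 34 of 66 (51.5%) in replicate 1 and 52 of 171 (30.4%) in replicate 2, and for Ccnd3 13 of 333 (3.90%, below the share over all genes) and 26 of 216 (12.0%). The last exons of Ccnd1 and Ccnd2 are long, 2841 and 5326 bases, against 1081 bases in Ccnd3. The authors' class of the intron-free Ccnd1 reads differed, genomic for all 18 in replicate 1 and ISM for all 33 in replicate 2. Pcna had 3 and 15 intron-free reads in replicates 1 and 2.

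The share of the leading transcript could be tested in 13 members, those with no fewer than 20 reads in replicate 1 and in replicate 2, and 2 were called, against 12.0% of the 5617 genes tested (Fisher's exact test, two-sided, adjusted over all of them). Ccnd3-205 held 92.8% of Ccnd3 reads in replicate 1 and 80.6% in replicate 2 (Fisher's exact adjusted p = 5.98e-04). Ccnd2-201 held 42.4% of Ccnd2 reads in replicate 1 and 64.9% in replicate 2 (Fisher's exact adjusted p = 0.0217). The shares moved in opposite directions, as did those of intron-free reads. Counted over known models alone, Ccnd2 was lower in replicate 1 by a log2 ratio of -1.20 and Ccnd3 higher by 1.48. Known models still held 1 intron-free Ccnd2 read in replicate 1 and 7 in replicate 2, and the part of such reads in these ratios was not tested.

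**Figure D5:**
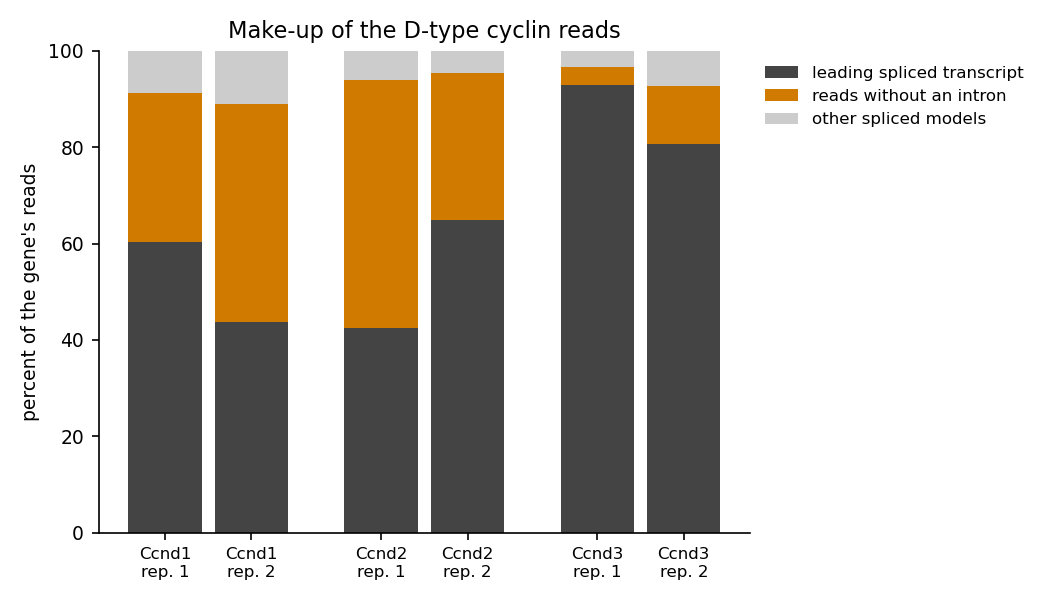
Make-up of the reads of each D-type cyclin in replicate 1 (left bar of each pair) and replicate 2 (right bar), as percent of the gene's reads in the leading spliced transcript, in reads without an intron and in other spliced models. Reads without an intron make up 51.5% of Ccnd2 reads in replicate 1 and 30.4% in replicate 2, and 3.90% and 12.0% of Ccnd3 reads.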

How the data were processed

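The authors deposited, library by library, raw read counts of transcript models and the models' exons. The genome build is mm10 and the gene annotation GENCODE M21, per the file headers, and attribute names point to TALON. For the aligner and tool versions the sources used here give nothing. Counts were summed by gene, spike-ins and loci outside annotated mouse genes were left out, and a model was taken as shared where strand and intron chain were equal. Log2 ratios used a prior of 0.5 reads. Tests were Fisher's exact tests on genes with at least 10 reads over both libraries. They were tried on simulated counts that held no spread beyond counting, so the trial says nothing about spread between samples. Intervals are 95% Clopper-Pearson intervals. Nothing states whether copies of a molecule made by PCR were merged. Tools were Python 3.11.15, SciPy 1.17.1, pandas 2.3.3, and for the alternatives edgeR 4.0.16 and DESeq2 1.42.0. The members, gene lists and motifs were chosen with earlier results of these data known. Named are all members, the 4 highest and every called gene of the further lists, leading transcripts with at least 20 reads, and NIC or NNC chains found in both libraries. With 1 group there was no comparison of conditions.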

Additional observations from a re-analysis of the deposited data

Results flagged for a closer look

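Reads on the strand opposite to a member lay outside the main counts. They were 16 reads at 11 members in replicate 1 and 20 reads at 14 members in replicate 2, and none held an intron. At Rrm1 there were 1 antisense read in replicate 1 and 4 antisense reads in replicate 2, the second number above the 3 reads that a count of 0 allows. The source of these reads was not tested.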

How the results depend on the processing

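The counts of calls depended on the scaling and on the spread assumed between samples. Called higher in replicate 1 were 6 members as reported, and 1 member (Ccnd3) with TMM factors, with DESeq2 size factors or at an assumed coefficient of variation of 0.2. Over all tested genes the share called higher was 25.3% as reported, 13.7% with TMM factors, 12.2% with size factors and 6.53% at that coefficient. Called lower were 1 member as reported, 2 with TMM factors, 4 with size factors, 0 at the assumed coefficient of variation and 2 without incomplete splice match models, while the share of all tested genes was 11.5%, 17.7%, 19.3%, 6.85% and 11.5% in the same order. At that coefficient of variation Ccnd2 had an edgeR exact adjusted p of 0.401. For the further lists, 22 genes were called higher and 3 lower as reported. With TMM factors 12 were called higher, with size factors 10 and at the assumed coefficient of variation 6, with 1 lower there. Of 53 recomputed log2 ratios of the 7 called members, 34 kept their call, 19 lost it and none changed sign. Ccnd3 alone stayed called in all 8 alternatives tried for it. Mcm5 lost its call without a read filter at an unmoved log2 ratio of 0.78 (Fisher's exact adjusted p = 0.0540), and Tpx2 was below the filter at 20 reads. Without incomplete splice match models Cdc45 (1.72, Fisher's exact adjusted p = 0.0961) and Tpx2 (1.87, Fisher's exact adjusted p = 0.0609) lost theirs.

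The mean ratio of replication to mitosis reads was 3.26 as reported, 3.55 over known transcripts alone and 3.16 without the most abundant gene of each set. The known share of member reads, 79.5% as a mean, was 85.6% among models with at least 2 reads. Leaving out a library moved the ratio to 3.20 or 3.33, the replication sum to 762 or 553 CPM and the mitosis sum to 238 or 166 CPM. Depth limits the order of levels, since 24 of 38 members had at least 20 reads over both libraries. No paired analysis was possible because the labels give 1 group.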
